A study of Mus musculus with 32 samples.

Results

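The mRNAs of the cytosolic ribosomal proteins were measured in S100a10 cells and in whole cortex of mice. A gene was taken as a member when its name in the count tables was Rpl or Rps with a number, or was Rpsa, Rplp0, Rplp1 or Rplp2. A single a, x, y or l could follow the number, with or without a further number. Paralogs such as Rps4l were thus included, and Rpl36al was not. Ribosomal S6 kinases and pseudogene names were left out, as were genes with a mean below 1 CPM (counts scaled to equal totals over genes) over the 32 libraries. Of 84 genes with such names, 78 were members, 32 of the small and 46 of the large subunit, among 24062 genes in the tables. The 6 left out were Rpl10l (0 CPM), Rpl39l (0.041), Rpl3l (0.057), Rpl26 (0.296), Rps27 (0.745) and Rpl30 (0.979), of which Rpl26, Rps27 and Rpl30 are core ribosomal proteins. The lowest members just inside the limit were Rpl34 and Rps4l.

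All mice carried Tg(S100a10-EGFP/Rpl10a)ES691Htz, a single transgenic line in which regulatory elements of S100a10 drive ribosomal protein L10a fused to EGFP. Immunopurification of EGFP recovers mRNA bound to tagged ribosomes (TRAP), and input is RNA of the whole cortex without hippocampi and striata. The groups were group-housed mice given vehicle (Gh), single-housed mice given vehicle (Sh), single-housed mice given fluoxetine whose behavior was labelled normal (Sh + Flx), and single-housed mice given fluoxetine whose behavior was labelled anxious (Sh + Flx anxious). All mice were adult males (older than P70). Those of the 3 single-housed groups had been kept alone after weaning at P21 for 7 weeks or more, and fluoxetine was given at 0.167 g/L in drinking water for 21 days by the labels and 15 to 21 days by the methods. Each of the 4 TRAP and 4 input libraries per group was made from cortices pooled over 3 mice.

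A ribosome joins a small subunit, which reads the mRNA, to a large subunit, which forms the peptide bond, and each cytosolic ribosomal protein is needed in about equal number. Most of their mRNAs begin with a 5′ terminal oligopyrimidine (TOP) tract, a C followed by pyrimidines, through which mTORC1 and LARP1 regulate their translation together. In neurons, ribosomal protein mRNAs are present in the soma and in axons and dendrites, and loss of 1 copy of several of these genes causes Diamond-Blackfan anemia. In the bacTRAP line the tagged protein is itself a member, so that reads from the L10a part of the transgene and from endogenous Rpl10a cannot be told apart in the count of Rpl10a.

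The TOP tract is shown here at annotated start sites because it is the sequence the family is known to share. RefSeq promoters of GRCm38.p6, the assembly of mm10, were found for 58 members (69 promoters), and 20 members had none. A C followed by at least 4 bases that were each C or T stood exactly at the annotated start in 12 of the 69 member promoters (17.4%), against 2.51% of all 32851 promoters. Within 5 bases of the annotated start it was found in 43.5% of the member promoters and 18.3% of all promoters. The search used the strand of the gene only, and a missing match says only that these letters were not at the annotated position. The windows below run from 10 bases before to 20 bases from the annotated start, 30 bases in all, written 5′ to 3′ on the strand of the gene, with the tract in capitals. The first 4 have it at the start, Rps27l has it 1 base after, and the last 4, whose values are described below, have none within 5 bases. Rps27l and Rpl10a have a further annotated start that is not shown.
Rps6, chr4:86857348-86857377, minus strand: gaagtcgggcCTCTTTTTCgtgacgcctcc
Rps15a, chr7:118116128-118116157, minus strand: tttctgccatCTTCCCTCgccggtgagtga
Rplp2, chr7:141447641-141447670, plus strand: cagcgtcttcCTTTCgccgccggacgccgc
Rpl35, chr2:39005112-39005141, minus strand: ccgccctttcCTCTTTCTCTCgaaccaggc
Rps27l, chr9:66946076-66946105, plus strand: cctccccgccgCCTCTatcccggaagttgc
Rpl41, chr10:128549149-128549178, minus strand: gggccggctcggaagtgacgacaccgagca
Rpl10a, chr17:28328461-28328490, plus strand: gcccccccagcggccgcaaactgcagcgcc
Rpl27, chr11:101442235-101442264, plus strand: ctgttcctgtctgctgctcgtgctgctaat
Rplp0, chr5:115559457-115559486, plus strand: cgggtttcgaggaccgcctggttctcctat

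The libraries held 9776244 to 64788703 counts in genes in TRAP and 19265435 to 34515281 in input. Sh TRAP 2 and 3 stood apart from the other TRAP libraries. S100a10, whose regulatory elements drive the tag, reached only 20.4 and 11.2 CPM there. It ranged from 41.5 to 73.0 CPM over the remaining 14 TRAP libraries and from 5.45 to 10.3 CPM over input. Reads that fell outside annotated features were 50.3% and 58.6% of Sh TRAP 2 and 3, 25.2% to 39.8% of the remaining TRAP libraries and 45.1% to 55.2% of input. Values that rest on Sh TRAP 2 and 3 are therefore given with and without them. Without them, Sh TRAP is left with replicates 1 and 4 (n = 2). The counts of Gh TRAP 2 and Gh TRAP 3 agreed within sampling noise, with a chi-square of 1.13 on average over genes where every other replicate pair had 2.17 or more. They entered as 1 summed sample, which leaves n = 3 in Gh TRAP. The methods describe 4 biological replicates of pooled mice per condition, and the labels do not say which animals entered which pool. The p-values measure the spread between these libraries.

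Ribosomal protein mRNAs took up a larger share of the TRAP libraries than of the input libraries. They held 1.058%, 1.049%, 1.045% and 1.097% of the counts in genes in Gh TRAP 1 to 4, and 0.587%, 0.727%, 0.658% and 0.599% in Gh input 1 to 4. In Sh TRAP 1 and 4 the share was 1.111% and 1.094%, whereas in Sh TRAP 2 and 3 it was 0.585% and 0.358%. It ran from 0.850% to 1.168% in Sh + Flx TRAP and from 0.915% to 1.009% in Sh + Flx anxious TRAP. All TRAP libraries other than Sh TRAP 2 and 3 lay above the highest input library, Gh input 2, and Sh TRAP 3 lay below the lowest input library, at 0.513%. The small subunit supplied 33.3% to 35.5% of the members' counts in every library, Sh TRAP 2 and 3 included.

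**Figure D1:**
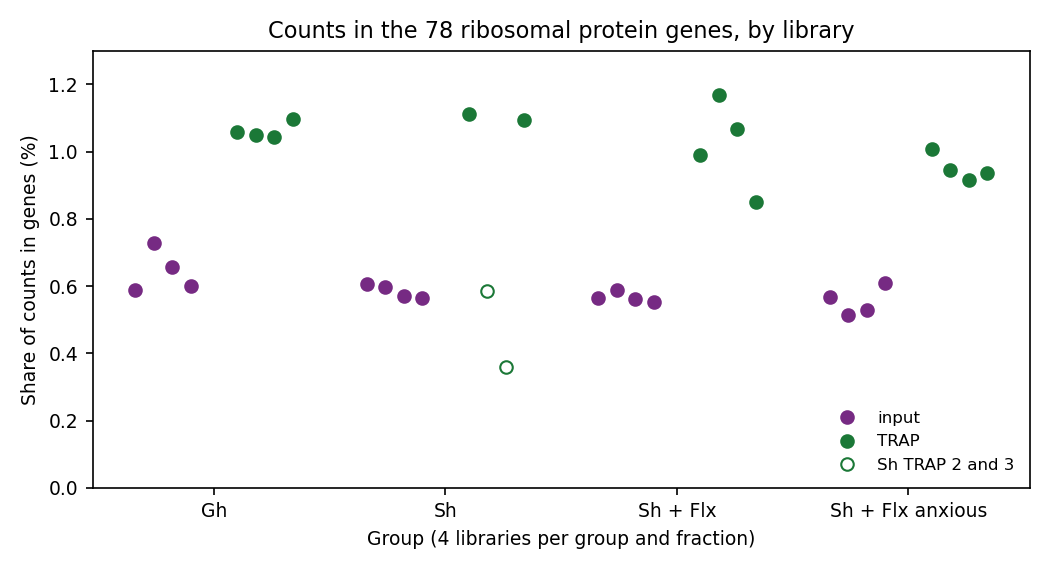
Share of counts in genes that fell in the 78 ribosomal protein genes (y axis, percent) for each library of the 4 groups (x axis), with input in purple and TRAP in green, and Sh TRAP 2 and 3 as open circles. The filled TRAP points lie between 0.850% and 1.168%, above all input points, and the open circles are at 0.585% and 0.358%.

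Levels of the members differed widely within whole cortex. Levels between genes are compared per length, as CPM scaled by TMM (edgeR's correction for library composition) per kb of the RefSeq transcript, averaged over the 4 input groups. The median over the 78 members was 77.2 CPM per kb, with quartiles of 53.4 and 122, and the range was from 1.88 to 248. Highest were Rpl4, a large-subunit protein with a long loop into the exit tunnel, at 248 CPM per kb, Rpl41, the smallest ribosomal protein, at 230 and Rpl31, at the rim of the tunnel, at 222. Lowest were Rpl34 at 1.88, Rps4l at 2.53 and Rpl7l1 at 6.30 CPM per kb. The last 2 are paralogs of Rps4x and Rpl7.

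Reads of these genes are not easily assigned. Many processed pseudogenes carry nearly the same sequence, and the authors allowed 1 hit per read in the alignment. Of the 75-base windows along each member's transcript, a median of 56.8% also occurred elsewhere in GRCm38.p6, with a range from 0% to 100%, and 43 of the 78 members had at least 50% of their windows elsewhere. The median was 0% among 77 mitochondrial ribosomal proteins, 39 proteasome subunits and 83 respiratory chain subunits. For Rps27, left out above for its low count, all windows occurred elsewhere. For the members that the results turn on, the share was 84.7% for Rpl10a, 69.8% for Rps6, 65.0% for Rpl27, 63.7% for Rpl41, 34.1% for Rplp0, 11.8% for Rps27l and 4.31% for Rps15a. Levels of members are thus uncertain by an amount that differs from gene to gene, whereas this share of a gene is the same in every library.

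The comparison of TRAP with input asks which members' mRNAs were more or less abundant on ribosomes of S100a10 cells than in cortex as a whole. In Gh, 36 of 78 members were higher in TRAP and 1 was lower (edgeR, adjusted p under 0.05), and 41 did not pass the test. Among all 17015 genes tested, 20.3% were higher in TRAP. The median log2 fold change of the members was 0.49 (range -0.36 to 1.86), beside -0.06 over all genes, and 75 of 78 were above 0. The TRAP and input libraries did not overlap for 63 members. Of these, 61 were higher in TRAP, which is 61 of 78 members beside 22.6% of all genes with no overlap in this direction. By subunit, 17 of 32 small-subunit genes were higher and 1 lower (median 0.55), and 19 of 46 large-subunit genes were higher (median 0.48).

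Rps27l had the largest log2 fold change of TRAP over input in Gh. It encodes a paralog of the small-subunit protein S27 and is a p53 target. Its level was 25.9, 22.1 and 23.2 CPM in the 3 Gh TRAP libraries and 5.01, 8.08, 7.89 and 5.05 CPM in the 4 Gh input libraries. The libraries did not overlap, and Gh input 2 and 3 lay above Gh input 1 and 4. The means were 23.7 ± 1.92 CPM (SD, n = 3) and 6.51 ± 1.71 CPM (SD, n = 4), a log2 fold change of 1.86 (standard error 0.33, edgeR adjusted p = 2.93e-05). It was also the member with the largest log2 fold change in the other groups, at 1.97 in Sh (2.67 without Sh TRAP 2 and 3), 2.92 in Sh + Flx and 2.43 in Sh + Flx anxious.

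Rpl41, which encodes a peptide at the interface of the subunits, followed. It stood at 300.02, 304 and 319 CPM in Gh TRAP and at 107, 144, 126 and 112 CPM in Gh input (log2 fold change 1.34, standard error 0.23, edgeR adjusted p = 1.95e-05). Per length it was the highest member in TRAP, at 591 CPM per kb, against 230 in input. In Sh TRAP it was at 293 and 277 CPM in replicates 1 and 4 and at 153 and 74.6 CPM in replicates 2 and 3.

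Rpl10a encodes the protein that carries the tag. Its level was 259.7, 256.0 and 248.7 CPM in Gh TRAP and 109, 109, 117 and 94.2 CPM in Gh input, with no overlap (means 254.8 ± 5.59 CPM, SD, n = 3, and 107 ± 9.59 CPM, SD, n = 4). The log2 fold change was 1.25 (standard error 0.26, edgeR adjusted p = 0.000198), 1.76 in Sh + Flx (standard error 0.25) and 1.75 in Sh + Flx anxious (standard error 0.25). It was 0.92 in Sh (standard error 0.24), or 1.58 without Sh TRAP 2 and 3, in which it was at 104 and 64.9 CPM, against 280 and 268 CPM in Sh TRAP 1 and 4. The part of the transgene's own reads in these counts was not tested.

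The remaining members named in Gh by the smallest p and libraries that did not overlap were of both subunits. Rpl27, mutated in some cases of Diamond-Blackfan anemia, was at 65.5 ± 2.92 CPM in TRAP (SD, n = 3) and 32.5 ± 2.22 CPM in input (SD, n = 4), a log2 fold change of 1.01 (standard error 0.19). Rplp0, the base of the P stalk that recruits elongation factors, was at 98.7 ± 2.80 and 46.1 ± 7.29 CPM, a log2 fold change of 1.10 (standard error 0.23). Rps16 had a log2 fold change of 0.97 (standard error 0.20), Rpl22, whose loss most cells tolerate, of 0.95 (standard error 0.21), and Rpl23, which can bind MDM2, of 0.82 (standard error 0.16). Rps6, the substrate of the S6 kinases and a common readout of mTORC1, rose from 193 ± 22.9 CPM in input to 351 ± 35.6 CPM in TRAP, a log2 fold change of 0.86 (standard error 0.20, edgeR adjusted p = 0.000891).

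The other P stalk genes did not pass the test. Rplp1 was at 37.9 ± 3.82 CPM in Gh TRAP (SD, n = 3) and 29.5 ± 4.13 CPM in Gh input (SD, n = 4), with an edgeR adjusted p = 0.182. Rplp2, at 69.3 ± 1.53 and 49.7 ± 6.21 CPM, had an edgeR adjusted p = 0.102. Both log2 fold changes, 0.36 and 0.48, had intervals that reached 0, from -0.08 to 0.79 and from -0.0005 to 0.96.

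Rps15a was the only member lower in TRAP in Gh. It stood at 142, 164 and 148 CPM in Gh TRAP and at 168, 228, 190 and 191 CPM in Gh input, with no overlap. The log2 fold change was -0.36 (standard error 0.12, edgeR adjusted p = 0.0188), and with the replicates summed as described below the adjusted p was 0.177. It was also lower in Sh (-0.63), Sh + Flx (-0.42) and Sh + Flx anxious (-0.40), where adjusted p ranged from 3.33e-05 to 0.00400. Its RefSeq transcript length, 5136 bases, is the largest among the members, and of all genes over 4 kb the median log2 fold change in Gh was -0.19. That median was 0.03 in Sh, -0.25 in Sh + Flx and -0.29 in Sh + Flx anxious. The part of length in the values of Rps15a was not tested. Rpl29 was lower in Sh alone, at 68.9, 47.9, 18.2 and 62.9 CPM in Sh TRAP against 70.3 to 81.8 CPM in Sh input (log2 fold change -0.64, edgeR adjusted p = 0.0109), and without Sh TRAP 2 and 3 it did not pass the test (log2 fold change -0.18, adjusted p = 0.198).

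**Figure D2:**
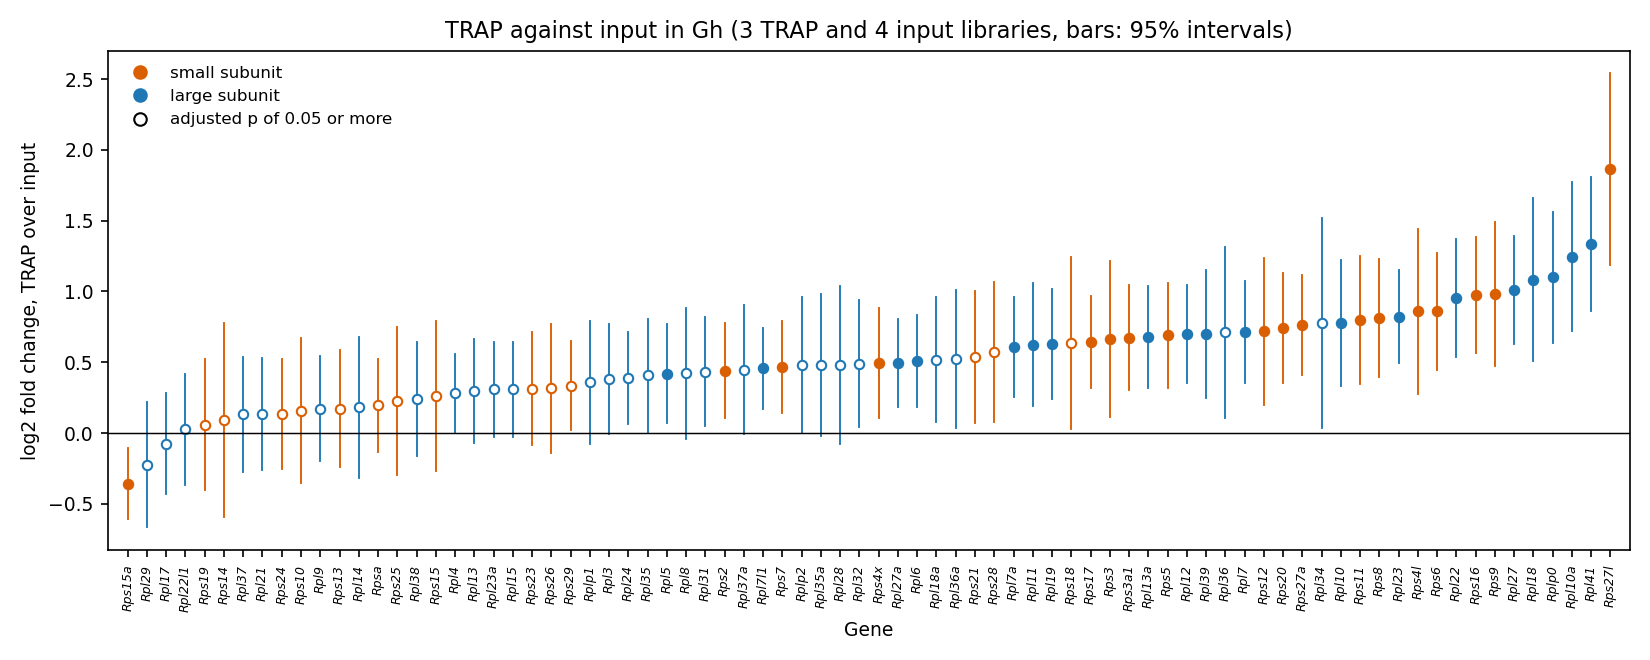
Log2 fold change of TRAP over input in Gh (y axis) for each of the 78 genes (x axis, sorted), with 95% intervals from edgeR; orange marks the small and blue the large subunit, and filled points have an adjusted p under 0.05. The points run from -0.36 for Rps15a to 1.86 for Rps27l, and 36 filled points lie above 0.

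Paralogs were set beside their parent genes. Rpl22l1, which can replace Rpl22 in the ribosome, was at 32.1 ± 2.07 CPM in Gh TRAP (SD, n = 3) and 31.4 ± 2.95 CPM in Gh input (SD, n = 4), a log2 fold change of 0.03 with an interval from -0.36 to 0.42, beside 0.95 for Rpl22 with an interval from 0.54 to 1.37. The difference between the paralogs was not tested. Rpl7l1, a paralog of Rpl7, rose from 17.6 ± 2.77 to 24.1 ± 1.84 CPM (log2 fold change 0.46, edgeR adjusted p = 0.00941), and Rpl7 from 73.3 ± 12.8 to 120 ± 6.51 CPM (0.71, adjusted p = 0.00148). Rps4l, at 4.66 ± 1.01 CPM in Gh TRAP and 2.58 ± 0.674 CPM in Gh input, had a log2 fold change of 0.86 (edgeR adjusted p = 0.0155), and Rps4x, the X-linked parent, a log2 fold change of 0.49 (adjusted p = 0.0359).

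In the other groups the members' medians of TRAP over input were also above 0. In Sh, 22 members were higher and 2 lower (median 0.24), where 21.3% of all genes were higher. In Sh + Flx, 51 were higher and 1 lower (median 0.58), where 24.9% of all genes were higher, and in Sh + Flx anxious 54 were higher and 1 lower (median 0.58), where 24% of all genes were higher. The 4 comparisons share 1 fit and its estimate of the spread. Without Sh TRAP 2 and 3, the members higher in TRAP numbered 69 in Gh, 69 in Sh, 73 in Sh + Flx and 72 in the anxious group, with 26.5%, 26.2%, 30.4% and 29.7% of all genes higher, and the medians were 0.57, 0.73, 0.66 and 0.68. Then 65 members were higher in each of the 4 groups, against 22 with all libraries. The shares of all genes higher in all 4 groups or in none are not given here. Counts of members of this kind therefore cannot be set against them. In the fit without Sh TRAP 2 and 3, Sh TRAP held replicates 1 and 4 alone (n = 2), whose counts were close to each other (mean chi-square 2.17). Counts were smaller where replicates 1 and 4 were summed and replicates 2 and 3 were summed, which leaves 2 samples a group. In that setting 16, 4, 26 and 22 members were higher in the same order of groups, beside 14%, 13.3%, 17.4% and 16.2% of all genes. The share of members higher in Sh then lay below that of all genes. The medians were 0.50, 0.21, 0.54 and 0.58. With all libraries, 19 members were higher in none of the groups, among them Rplp1, Rpl22l1, Rpl34, Rps19, the gene first linked to Diamond-Blackfan anemia, and Rpsa, which also forms the laminin receptor. Without Sh TRAP 2 and 3, Rps15a and Rpl29 were the only such members.

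**Figure D3:**
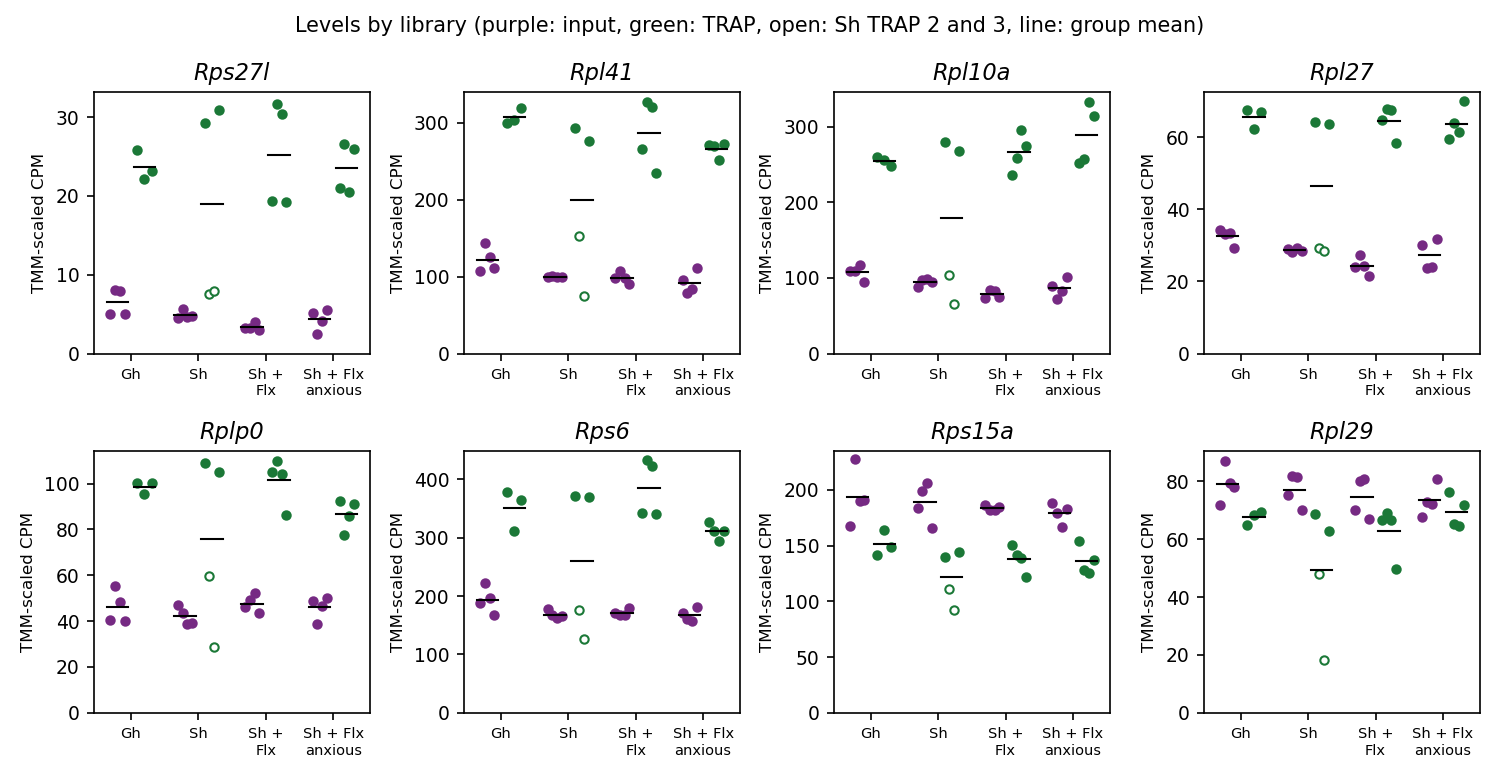
TMM-scaled CPM (y axes, from 0) of 8 named members in each library of the 4 groups (x axes), with input in purple, TRAP in green, Sh TRAP 2 and 3 as open circles and a line at each group mean. For Rps27l, Rpl41, Rpl10a, Rpl27, Rplp0 and Rps6 the filled TRAP points lie above the input points of their group, and for Rps15a they lie below.

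Other measures moved with the difference between TRAP and input, and their part in it was not tested. Markers of meningeal fibroblasts were all higher in Gh TRAP (12 of 12, median log2 fold change 5.25), their summed level being 5107 to 11350 CPM in the 14 TRAP libraries, 3265 and 2572 CPM in Sh TRAP 2 and 3, and 141 to 268 CPM in input. Of endothelial markers 9 of 10 were higher, with 177 to 244 CPM in the 14 TRAP libraries and 17.2 to 23.7 CPM in input. Markers of neurons in general were lower (7 of 11, median -0.50), as were those of oligodendrocytes (11 of 12, median -1.43) and nuclear RNAs (6 of 8, median -1.54). Layer 5 markers, which the labelled cell type should carry, were lower for 6 of 10 and higher for 3. The difference of TRAP over input also varied with transcript length. Among genes under 1 kb that are no members the median log2 fold change in Gh was 0.19 (1387 genes) and among the 57 members of that length 0.49, and from 1 to 2 kb these values were 0.07 (3864 genes) and 0.50 (16 members). In bulk RNA of this kind, more cells of a type and more RNA per cell cannot be told apart.

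Among related genes the ribosomal proteins outside the naming rule moved the same way. Of 4, 3 were higher in Gh TRAP: Fau, the S30 fusion protein, at 50.5 ± 5.47 against 24.1 ± 3.79 CPM, Gnb2l1, which encodes RACK1 of the small subunit, at 61.9 ± 3.28 against 33.8 ± 5.33 CPM, and Rpl36al. Of 16 other mRNAs listed as TOP mRNAs from earlier knowledge 8 were higher and none lower (median 0.32). Among them were Tpt1, the translationally controlled tumor protein, with a log2 fold change of 1.03, and Naca with 0.71. Of the 11 genes of this list with a promoter, 4 had the tract at an annotated start. Elongation factors were mixed, with 3 of 10 higher and 3 lower (median -0.002). Eef1a1, which delivers the aminoacyl-tRNA, was at 1259 ± 65.7 CPM in TRAP and 729 ± 76.5 CPM in input, and Eif5a2 fell by 1.07 on the log2 scale. Initiation factors were higher for 9 of 36 and lower for 2, ribosome biogenesis factors for 9 and 6 of 52, RNA polymerase I subunits and factors for 5 and 2 of 19, and genes of mTOR and TOP control for 4 and 0 of 17, Myc at a log2 fold change of 1.52 among them. Of other large complexes, mitochondrial ribosomal proteins were higher for 12 of 77 and lower for 4 (median 0.21), proteasome subunits for 11 and 1 of 39 (median 0.21), and respiratory chain subunits for 22 and 1 of 82 (median 0.26), all beside 0.49 for the members.

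Members were also described by their annotated TOP tract, and the differences between these classes were not tested. The median log2 fold change of TRAP over input in Gh was 0.44 for the 12 members with the tract at an annotated start, 0.62 for the 16 with it within 5 bases and 0.50 for the 30 with none in that range. Of these, 1, 10 and 17 members were higher, and 1 of the first was lower, Rps15a. In the same order of classes the medians were 0.12, 0.35 and 0.29 in Sh, with 1, 7 and 8 members higher. They were 0.49, 0.76 and 0.57 in Sh + Flx, with 6, 11 and 21 higher, and 0.54, 0.73 and 0.58 in Sh + Flx anxious, with 8, 11 and 20 higher.

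Between groups, no member passed the test in TRAP with all libraries and no covariate. In Sh against Gh none of 78 members passed the test, nor did any of the 16754 genes (0%), with 14 members and 2634 genes at an unadjusted p under 0.05 and none by DESeq2 among the members. The median log2 fold change of the members was -0.41, and 78 of 78 were below 0. Among the 1306 other genes under 1 kb the median was -0.28, beside -0.42 for the 57 members of that length. It was -0.18 among other genes of 1 to 2 kb and 0.20 among those over 4 kb. The part of transcript length was not tested. Without Sh TRAP 2 and 3 the members' median was 0.04, and with the percent of reads outside features as a covariate it was 0.05. The smallest p were those of Rpl35, at 34.8, 33.9 and 38.1 CPM in Gh TRAP and 27.2, 19.1, 11.4 and 27.4 CPM in Sh TRAP (log2 fold change -0.75, edgeR adjusted p = 0.206), and of Rps4l, at 3.56, 5.53 and 4.90 CPM in Gh TRAP and 2.66, 2.39, 2.11 and 2.49 CPM in Sh TRAP (-0.96, adjusted p = 0.206). For both, all Sh libraries lay below all Gh libraries, replicates 1 and 4 included. The paper's own edgeR comparison of these groups lists both genes as lower in Sh. With Gh TRAP 2 and 3 as separate libraries, 0 members were called here too. The cause of this difference from the paper was not tested.

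In TRAP of the fluoxetine groups against Gh, members were called in 1 of the 2 comparisons, and there with a covariate alone among the fits run. Without it no member was called in Sh + Flx against Gh (0.00597% of all genes were) or in Sh + Flx anxious against Gh (0.0716%), and 1 and 0 members had an unadjusted p under 0.05. DESeq2 called none. The medians were -0.08 and -0.13. With the percent of reads outside features as a covariate, chosen after seeing the data, the medians were -0.29 and -0.55. Then 28 members were lower in Sh + Flx anxious, where 2.58% of all genes were lower. That percent was 25.2% to 33.2% in Sh + Flx anxious TRAP and 34.7% to 39.8% in Gh TRAP, without overlap. The covariate and the group can therefore not be told apart in this comparison. No member was called in Sh + Flx with the covariate. Rpl12, of the base of the P stalk, and Rpl22 had the smallest p in Sh + Flx anxious (log2 fold change -0.33 and -0.37, adjusted p 0.776 and 0.810 by edgeR), and Rps4l and Rpl35 in Sh + Flx (-0.65 and -0.33, adjusted p 0.774 and 0.976).

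Against Sh, the direction of the members' median changed with the libraries kept and with a covariate. In Sh + Flx against Sh no member was called (6.46% of all genes), with 9 at an unadjusted p under 0.05 and a median of 0.33. In Sh + Flx anxious against Sh no member was called (10.5% of all genes), with 6 at an unadjusted p under 0.05 and a median of 0.29. DESeq2 called none in either. In both, 76 of 78 log2 fold changes were above 0. Over all genes the medians were -0.02 and -0.01. Among the 1306 other genes under 1 kb they were 0.23 and 0.30, beside 0.33 and 0.32 for the 57 members of that length. The part of transcript length was not tested. Without Sh TRAP 2 and 3, which leaves Sh TRAP 1 and 4 (n = 2), the members' medians were -0.12 and -0.15. Then 2 members and 1 member were lower, where 0.912% and 1.89% of all genes were lower. With all libraries and the percent of reads outside features as a covariate, chosen after seeing the data, the medians were -0.34 and -0.61. In that fit 2 members were lower in Sh + Flx and 23 in Sh + Flx anxious, where 1.65% and 4.32% of all genes were lower. The percent of reads outside features ran from 38.8% to 58.6% in Sh TRAP. It was 30.0% to 35.8% in Sh + Flx TRAP and 25.2% to 33.2% in Sh + Flx anxious TRAP, both below all Sh TRAP libraries. The covariate and the group can therefore not be told apart here either. The cause of the change of direction was not tested. Rps2, a small-subunit protein near the entry of the mRNA channel, was at 90.3, 79.2, 82.5 and 69.2 CPM in Sh + Flx TRAP and 72.6, 46.7, 32.6 and 75.3 CPM in Sh TRAP (log2 fold change 0.49, edgeR adjusted p = 0.117). Rpl10a, in Sh + Flx anxious against Sh, had a log2 fold change of 0.70 (edgeR adjusted p = 0.142), the other member of small p being Rps4l (0.67, adjusted p = 0.123).

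Sh + Flx anxious against Sh + Flx gave no call in TRAP among the members or among all genes (0%), with 0 members and 724 genes at an unadjusted p under 0.05, and none among the members by DESeq2. The members' median was -0.02, and -0.23 with the percent of reads outside features as a covariate. Rpl13a, of the GAIT complex, had the smallest p (log2 fold change -0.32, edgeR adjusted p = 0.9999), with an interval from -0.72 to 0.08. In simulated counts for Sh against Gh in TRAP, edgeR recovered 5.97% of genes changed by 1.5-fold, 32.8% of those changed by 2-fold and 59.1% of those changed by 3-fold. Most single genes changed by 1.5-fold or 2-fold in Sh were thus missed. The changed genes were drawn from all genes kept, and the change was set in Sh TRAP alone. Recovery was not measured for the members, for Sh + Flx anxious against Sh + Flx or for changes under 1.5-fold.

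**Figure D4:**
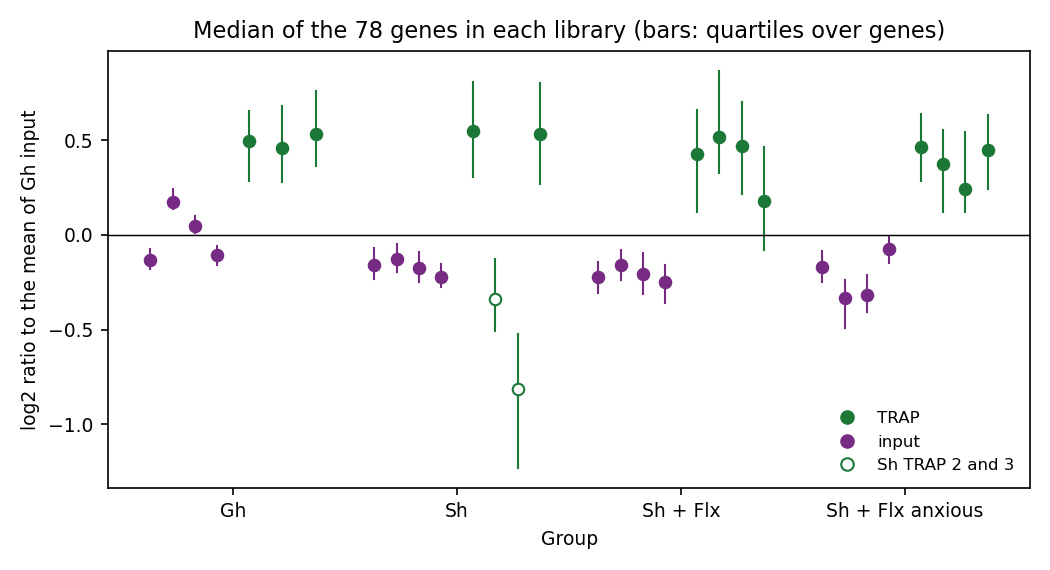
Median over the 78 genes of the log2 ratio of each library to the mean of Gh input (y axis; bars, quartiles over genes), by group (x axis), with input in purple, TRAP in green and Sh TRAP 2 and 3 as open circles. Sh TRAP 2 and 3 lie at -0.34 and -0.82, the other TRAP libraries between 0.18 and 0.55, and Gh input 2 and 3 at 0.17 and 0.05, above all other input libraries.

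In input, a part of the members was lower in both fluoxetine groups than in Gh. In Sh + Flx against Gh, 21 of 78 members were lower and none higher (edgeR, adjusted p under 0.05), where 2.21% of all 15690 genes were lower. The median was -0.23 beside -0.006 over all genes, and 73 of 78 were below 0. In Sh + Flx anxious against Gh, 31 members were lower and none higher, where 5.27% of all genes were lower, with a median of -0.23 and 75 of 78 below 0. Among the 1112 other genes under 1 kb the medians were -0.11 in both comparisons, beside -0.26 for the 57 members of that length. The libraries of the groups did not overlap for 32 and 19 members, all lower, beside 4.96% and 6.2% of all genes with no overlap in this direction. Both comparisons share the 4 Gh input libraries. Replicates 1 and 4, and replicates 2 and 3, resembled each other in every input group. With each such pair summed, no member was lower in Sh + Flx (0.232% of all genes were) and 4 were lower in Sh + Flx anxious (1.61%). With the percent of reads outside features as a covariate, chosen after seeing the data, 32 members were lower in Sh + Flx, where 3.47% of all genes were lower. In that fit 40 members were lower in Sh + Flx anxious, for which the share of all genes is not given here.

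Rpl21, of the large subunit, had the smallest p in both. It stood at 199.9, 212, 211 and 190 CPM in Gh input, at 152, 165, 169 and 155 CPM in Sh + Flx input and at 160, 146, 146 and 172 CPM in Sh + Flx anxious input. Neither group overlapped Gh. The log2 fold changes were -0.35 (standard error 0.06, edgeR adjusted p = 0.000389) and -0.38 (standard error 0.06, adjusted p = 4.30e-05). In Sh input it was at 166, 175, 169 and 172 CPM, also below all Gh libraries, and did not pass the test (log2 fold change -0.25, adjusted p = 0.0953).

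Rpl31 fell by 0.35 and 0.37 on the log2 scale in Sh + Flx and Sh + Flx anxious (edgeR adjusted p = 0.000509 and 0.000126), from 289 ± 10.9 CPM in Gh to 226 ± 11.2 and 224 ± 22.9 CPM (SD, n = 4). Rps16 fell by 0.42 in Sh + Flx (adjusted p = 0.00138) and by 0.35 in Sh + Flx anxious (adjusted p = 0.0042). Rps25, which some viral internal ribosome entry sites need, fell by 0.41 in Sh + Flx anxious (adjusted p = 0.000731), and Rps24, a Diamond-Blackfan gene, by 0.42 (adjusted p = 0.00123). In input Rpl10a was at 109, 109, 117 and 94.2 CPM in Gh, at 73.6, 84.3, 82.5 and 74.5 CPM in Sh + Flx and at 89.3, 71.5, 82.1 and 102 CPM in Sh + Flx anxious. It was lower in Sh + Flx without overlap (log2 fold change -0.45, standard error 0.08, edgeR adjusted p = 0.000897) and in Sh + Flx anxious with overlap (-0.32, adjusted p = 0.0106). Rps27l, which in TRAP over input had the largest rise, fell by 0.97 in Sh + Flx input (adjusted p = 0.00465), from 6.51 ± 1.71 to 3.33 ± 0.420 CPM (SD, n = 4), and was at 4.34 ± 1.33 CPM in Sh + Flx anxious (log2 fold change -0.57, adjusted p = 0.0712).

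Not every member was lower. Rplp0 had log2 fold changes of 0.05 and 0.004 in Sh + Flx and Sh + Flx anxious input against Gh, with intervals from -0.15 to 0.25 and from -0.20 to 0.21. Rps6 was lower in Sh + Flx anxious (log2 fold change -0.20, edgeR adjusted p = 0.0456) and did not pass the test in Sh + Flx (-0.18, adjusted p = 0.135). By role, 4 of 6 proteins of the exit tunnel rim were lower in each comparison, 5 of 16 Diamond-Blackfan genes, 1 of 4 X-linked genes and none of the 3 P stalk genes. By subunit, 9 of 32 small and 12 of 46 large subunit genes were lower in Sh + Flx, and 15 and 16 in Sh + Flx anxious.

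**Figure D5:**
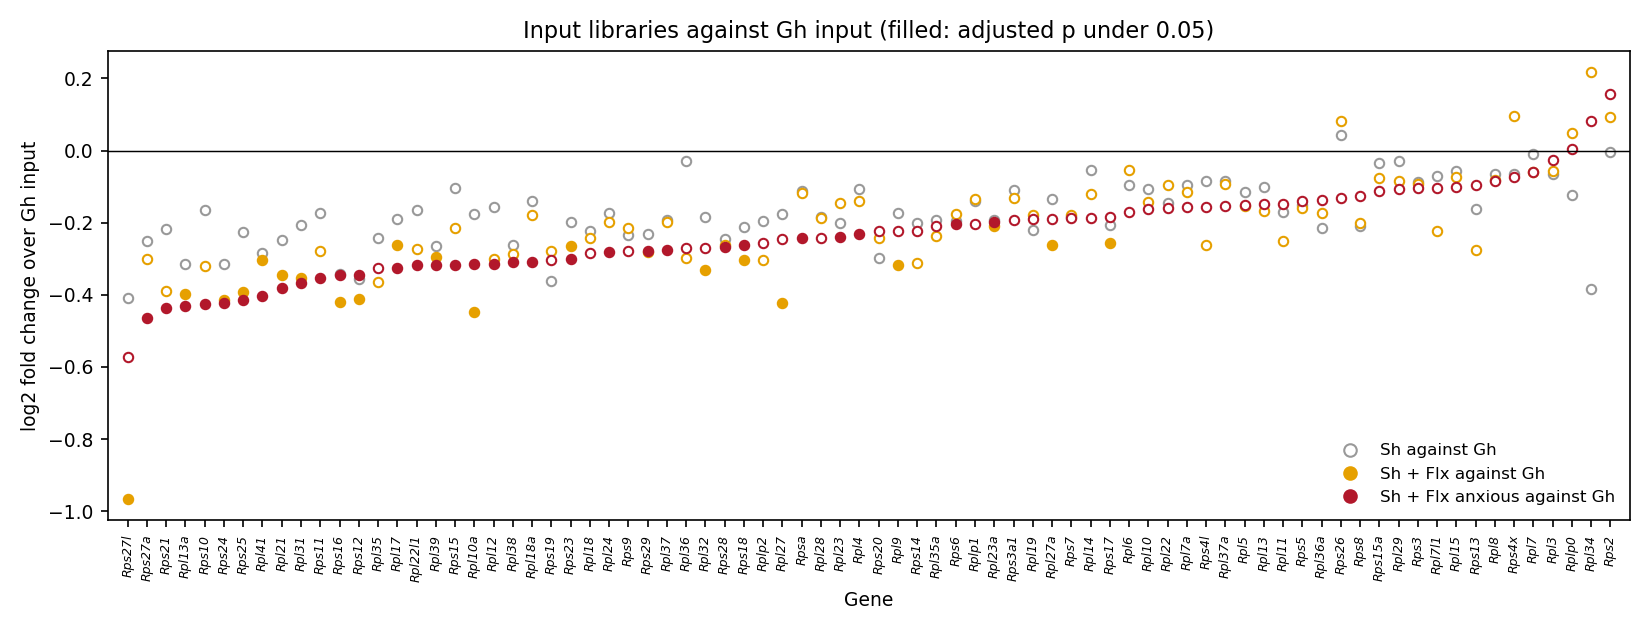
Log2 fold change over Gh in input (y axis) of Sh in grey, Sh + Flx in yellow and Sh + Flx anxious in red for each of the 78 genes (x axis, sorted by the last), filled where the adjusted p is under 0.05. Most points lie below 0, with 21 yellow and 31 red filled points and no filled grey point.

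The size of this difference rested on Gh input 2 and 3. The share of counts in the members was 0.727% and 0.658% in these libraries, 0.587% and 0.599% in Gh input 1 and 4, and 0.513% to 0.609% in the 12 input libraries of the other groups. Without Gh input 2 and 3, a comparison chosen after seeing the data, 4 members were lower in Sh + Flx and 2 in Sh + Flx anxious, where 1.34% and 3.09% of all genes were lower, and both medians were -0.12. Other measures of these libraries differed too, and their part was not tested. Reads outside features were 45.1% and 47.0% of Gh input 2 and 3, 51.6% of both Gh input 1 and 4, and 46.5% to 55.2% in the 12 others. The nuclear RNA Meg3 had 7474 and 7402 CPM in Gh input 2 and 3, 10663 and 9950 CPM in Gh input 1 and 4, and 7600 to 10501 CPM in the 12 others. Genes under 1 kb that are no members held 1.90% and 1.79% of the counts in Gh input 2 and 3, 1.65% and 1.70% in Gh input 1 and 4, and 1.53% to 1.72% in the 12 others. Leaving out Gh input 2 alone gave 9 and 17 lower members. Leaving out Sh + Flx input 1, 3 or 4, or Gh input 3, gave 9 to 12 in Sh + Flx, and leaving out Sh + Flx anxious input 2 or 3 gave 17 and 19 in Sh + Flx anxious. For fits with 1 library left out the shares of all genes are not given here, so these counts cannot be set against them.

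Oligodendrocyte markers moved in the same comparisons, and their part in the members' difference was not tested. Of 12 such markers 7 were lower in Sh + Flx input and 10 in Sh + Flx anxious input than in Gh (median log2 fold change -0.37 and -0.56). Their summed level was 1967 to 2221 CPM in Gh input, 1805 to 2184 in Sh, 1526 to 1625 in Sh + Flx and 1208 to 1559 in Sh + Flx anxious input. Respiratory chain subunits were lower for 9 and 10 of 79 (median -0.12 in both), mitochondrial ribosomal proteins for 0 and 3 of 77 (median -0.12 and -0.10) and proteasome subunits for 0 of 38 in each. Other TOP mRNAs were lower for 0 and 2 of 16 and higher for 1 in each, and elongation factors lower for 0 and 1 of 10.

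The remaining comparisons in input gave no member past the threshold of the edgeR test without a covariate. In Sh against Gh no member was called by edgeR (0.0829% of all genes), 34 had an unadjusted p under 0.05, DESeq2 called 4, all lower, and the median was -0.18 with 77 of 78 below 0. The DESeq2 shares of all genes are not given here, so its counts of members cannot be set against them. In simulated counts for Sh against Gh in input, 9.20% of DESeq2 calls and 3.33% of edgeR calls were false. Rps16 had a log2 fold change of -0.34 (edgeR adjusted p = 0.0947), at 40.0, 42.9, 44.3 and 38.5 CPM in Gh and 32.5, 35.6, 30.4 and 31.4 CPM in Sh, without overlap. Without Gh input 2 and 3 the members' median was -0.05. With all libraries, other genes under 1 kb had a median of -0.12, beside -0.19 for the members of that length. In Sh + Flx against Sh no member was called (2.62% of all genes), 6 had an unadjusted p under 0.05, the median was -0.04, and DESeq2 called 1, Rpl10a (edgeR log2 fold change -0.27, adjusted p = 0.0785; DESeq2 adjusted p = 0.0434). In Sh + Flx anxious against Sh no member was called by edgeR (6.86% of all genes) or DESeq2, 11 had an unadjusted p under 0.05 and the median was -0.06, with Rps15 at a log2 fold change of -0.21 (adjusted p = 0.0974). In Sh + Flx anxious against Sh + Flx no member was called by either tool (0.127% of all genes), 2 had an unadjusted p under 0.05, and the median was -0.02. Those of the last comparison were Rps26 and Rps4x, each with all anxious libraries below all Sh + Flx libraries (log2 fold change -0.22 and -0.17, edgeR adjusted p = 0.413 and 0.531). With the percent of reads outside features as a covariate, 6 members were lower in Sh + Flx and 10 in Sh + Flx anxious than in Sh, where 1.04% and 3.42% of all genes were lower.

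Whether TRAP changed by more than input was tested as an interaction over both fractions. No member was called by edgeR in Sh against Gh (0.0235% of all genes), in Sh + Flx against Sh (2.97%) or in Sh + Flx anxious against Sh (7.26%), with 1, 10 and 9 members at an unadjusted p under 0.05. DESeq2 called 0, 1 and 0 members, and its shares of all genes are not given here. The members' medians were -0.25, 0.36 and 0.32, and without Sh TRAP 2 and 3 they were 0.19, -0.04 and -0.08. Among other genes under 1 kb, with all libraries, the medians were -0.15, 0.24 and 0.29. Rpl27 had the smallest p in Sh + Flx against Sh (difference of log2 fold changes 0.71, standard error 0.25, edgeR adjusted p = 0.0937), and Rpl4 in Sh + Flx anxious against Sh (0.44, standard error 0.18, adjusted p = 0.123). A change of the members in TRAP beyond that in input was therefore not shown in any of the 3.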

How the data were processed

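RNA-seq libraries of TRAP and input RNA were compared between 4 groups of mice. The authors used an unstranded amplification kit, 75-base paired reads and TopHat2 2.0.11 with mm10, allowed 1 hit per read, and deposited raw counts per gene. Which program counted the reads was not stated in the sources at hand. Tables of mean FPKM per group and of the authors' own comparisons entered no value given here. The paper's list for Sh against Gh in TRAP is cited for Rpl35 and Rps4l alone. The last 5 lines of each table, which are not genes, entered neither totals nor tests. Reads outside features were 25.2% to 58.6% of a library. In all input groups and in Sh TRAP, replicates 1 and 4, and 2 and 3, resembled each other more than other pairs. Deviations of same-numbered libraries correlated above 0.1 in all 4 pairs of Gh TRAP and Sh TRAP (0.101 to 0.199). The main fits, that of Sh TRAP against Gh TRAP included, had no replicate block and did not use the numbers as pairs. A replicate block was run as an alternative, with Gh TRAP 2 and 3 as separate libraries.

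Genes were kept by filterByExpr, scaled by TMM and tested with edgeR 4.0.16 (glmQLFit and glmQLFTest, R 4.3.3), with Benjamini-Hochberg adjustment over all genes kept and a threshold of 0.05. TRAP (16754 genes), input (15690) and both fractions (17015) were fitted separately. DESeq2 1.42.0, other scalings, no filter, summed replicates, a replicate block and left-out libraries were alternatives. The procedure was tested on simulated data. CPM are TMM-scaled unless given as a share. Transcript lengths and promoters come from RefSeq GRCm38.p6.

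The members and lists were chosen with earlier results of these data known. Named genes were Rpl10a, Rps6 and the P stalk genes, paralogs and their parents, the 3 highest and 3 lowest members per length in input, up to 8 called members in each direction with the smallest p and libraries that did not overlap (TRAP against input in Gh), up to 4 in each direction in other comparisons or the 2 smallest p where none was called, and up to 3 genes of other lists with the smallest p. Rps19, Rpsa and other genes named outside this rule were chosen after their values were seen.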

Additional observations from a re-analysis of the deposited data

Results flagged for a closer look

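Among 31 named members, together with the members' share of counts, 224 groups of 4 libraries were examined for 1 library far from the others (its gap to the nearest library against the range of the group, Dixon's 95% limit), and 8 were found (3.57%; chance gives about 5%). In Sh + Flx TRAP, replicate 4 was lowest for 3 of them: Rpl22l1 at 20.7 CPM against 34.1 to 36.0 in the others, Rpl7l1 at 22.2 against 25.1 to 25.4, and Rpl29 at 49.6 against 66.6 to 69.2. The members' share of counts was 0.850% in this library and 0.990% to 1.168% in the other 3. Rpl41 was at 251 CPM in Sh + Flx anxious TRAP 3, against 269.6 to 273. In input, Rplp1 was at 28.4 CPM in Sh + Flx anxious 4 (24.5 to 24.9 in the others), Rpl34 at 0.494 in Sh 1 (0.877 to 0.947), Rpl13a at 58.4 in Sh 3 (65.99 to 67.1) and Rps26 at 37.4 in Sh + Flx 4 (40.2 to 40.5).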

How the results depend on the processing

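Of 4140 values of named members under alternatives, 3937 kept their direction and side of the threshold, 114 no longer passed, 88 newly passed and 1 changed sign past the threshold: Rpl4 in Sh TRAP against input, 0.32 without Sh TRAP 2 and 3. Members called in TRAP against input numbered 37 in Gh, 24 in Sh, 52 in Sh + Flx and 55 in the anxious group. Without Sh TRAP 2 and 3, Gh and Sh gave 70 each. With library size alone Gh gave 60, since this scaling moved the median of all genes in Gh from -0.06 to 0.17 (68.5% of all calls higher, against 48.1%); relative to all genes the members' median was 0.56 under both. With replicates 1 and 4 summed and 2 and 3 summed, which leaves fewer samples, they were 16, 5, 26 and 22, and in Sh + Flx and Sh + Flx anxious input against Gh 0 and 4 (main, 21 and 31). Without Gh input 2 and 3 the latter were 4 and 2. With the percent of reads outside features as a covariate, chosen after seeing the data, Sh + Flx input against Gh gave 32, Sh + Flx and Sh + Flx anxious input against Sh 6 and 10, Sh + Flx anxious TRAP against Gh 28, and Sh + Flx and Sh + Flx anxious TRAP against Sh 2 and 23, all lower; none of these 5 other comparisons had a call in the main analysis, and the cause was not tested. In the TRAP comparisons just named the covariate did not overlap between the groups, so that covariate and group cannot be told apart. Without Sh TRAP 2 and 3, Sh + Flx and Sh + Flx anxious TRAP against Sh gave 2 and 1. DESeq2 gave 4 in Sh input against Gh, 1 in Sh + Flx input against Sh and 1 for TRAP beyond input in Sh + Flx against Sh. Its shares of all genes are not given here, so these counts cannot be set against them.

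Leaving out 1 library at a time, calls ranged from 30 to 57 (Gh), 15 to 54 (Sh), 44 to 64 (Sh + Flx) and 44 to 64 (Sh + Flx anxious) in TRAP against input. Without Sh + Flx anxious input 4, input of Sh + Flx and Sh + Flx anxious against Sh gave 1 and 3, and without Sh + Flx anxious input 2 the former gave 1. The count in Gh was 57 without Sh TRAP 3, which shares its estimate of the spread, and that in Sh was 15, 37 and 54 without Sh TRAP 1, 2 and 3. In TRAP against Sh they ranged from 0 to 6 (Sh + Flx) and 0 to 3 (Sh + Flx anxious), being 6 and 3 without Sh TRAP 1, and 4 and 2 without Sh TRAP 4; in input against Gh from 9 to 27 and 17 to 44; in input against Sh from 0 to 1 and 0 to 3; and for TRAP beyond input from 0 to 8 (Sh + Flx against Sh) and 0 to 13 (Sh + Flx anxious against Sh), 8 and 13 without Sh TRAP 1 and 6 and 10 without Sh TRAP 4. In the other comparisons they were 0 throughout. The shares of all genes in these fits are not given here, so the counts do not show whether the members stood out.

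Replicate numbers are shared between groups in the labels, but deviations of same-numbered libraries correlated above 0.1 for 4 of 24 TRAP pairs, 1 of 24 input pairs and 2 of 16 pairs of TRAP and input. The 4 TRAP pairs were all those of Gh and Sh. The main fit of that comparison did not use the numbers as pairs. As an alternative, a replicate block gave 0 calls there too (median -0.45, against -0.41). In the others, with a replicate block, calls in TRAP against input were 42, 22, 54 and 54, and in the fluoxetine groups against Gh in input 18 and 26. The shares of all genes with a replicate block are not given here, so these counts do not show whether the members stood out.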
